A study of Mus musculus with 48 samples.

Results

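The non-T immune cells of wild-type (WT) mice were compared between tumors and tumor-draining lymph nodes, in live cells sorted as CD45+ CD4- CD8-. CD45 is a surface protein of nearly all white blood cells. This gate thus holds B cells, myeloid cells, NK cells and other immune cells left after cells with CD4 or CD8, such as T cells, are removed. The members were chosen by their titles, WT CD45 TILs and WT CD45 TDLNs, and make up 8 of the 48 libraries of the study, 4 from tumors (TILs, tumor-infiltrating leukocytes) and 4 from nodes (TDLNs). The study asked what the transcriptional regulator Yap does in T cells, using mice whose Yap is deleted in T cells (Yap-cKO) and WT mice. It sequenced these cells, CD4+ T cells and CD8+ T cells from both tissues of both genotypes, with 4 libraries in each of 12 groups.

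All mice were on the C57BL/6J strain and carried subcutaneous tumors of B16F10, a mouse melanoma cell line. The node taken was the inguinal node that drains the tumor. The 8 libraries compared here came from mice labelled WT, which received no treatment that the labels name. By the study's methods the controls were littermates of Yap-cKO mice, in which Cd4-driven Cre removes floxed Yap, and the sources used here do not say which of the Yap, Cre and reporter alleles the WT mice carried. The labels give neither the age nor the sex of the mice (young adults by the study's methods), and do not say whether a tumor library and a node library of the same number came from the same mouse. The gate was set on CD45, CD4 and CD8, and tumors and nodes were dissociated before the sort. By the study's methods tumors were digested with collagenase and DNase. No such step is described there for nodes, and the part of this handling in the results was not tested. Each library is a mixture of cell types, so fewer cells of a type and less RNA per cell cannot be told apart in any value below.

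B cells carry an antibody-like receptor made of an immunoglobulin and the signaling chains Cd79a and Cd79b, and they fill the follicles of resting lymph nodes. Monocytes enter tissues from blood and become macrophages, which engulf debris and secrete chemokines, while dendritic cells carry antigen to nodes and present it to T cells on MHC class II proteins. In transplanted melanomas such as B16F10, monocytes and macrophages are known to be common among the immune cells. Values are CPM, counts scaled to the size of each library after TMM normalization, given per library or as mean ± SD over n = 4. By edgeR's quasi-likelihood test over all genes with enough counts, a gene was called higher or lower when its adjusted p was under 0.05 and it differed by more than 2-fold, a log2 fold change beyond 1 in either direction.

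Genes of myeloid cells were higher in the tumor samples and genes of B cells were higher in the node samples. Lyz2, which encodes the lysozyme of macrophages and neutrophils, stood at 21537, 15527, 22928 and 17291 CPM in TIL replicates 1 to 4 and at 776, 148, 712 and 2783 CPM in TDLN replicates 1 to 4. All TIL libraries lay above all TDLN libraries, and TDLN replicates 4 and 2 were the highest and lowest of the node libraries (log2 fold change 4.13, SE 0.74, adjusted p = 0.00111, and 5.13 on leaving out TDLN replicate 4). Cd79a was at 603, 461, 327 and 379 CPM in TILs and at 3969, 2074, 3206 and 3426 CPM in TDLNs. The groups did not overlap, and the fold change was 7.16 in favor of the node (log2 fold change -2.84, SE 0.31, adjusted p = 7.63e-05). Ms4a1, which encodes the B-cell surface protein CD20, was at 189, 105, 69 and 104 CPM in TILs and at 442, 1309, 722 and 412 CPM in TDLNs, again without overlap (log2 fold change -2.63, SE 0.44, adjusted p = 0.00081). Summed over its 19 measured members, the B-cell list (receptor chains, coreceptors and surface proteins of B cells) came to 1388 to 2586 CPM in TILs and 14723 to 16162 CPM in TDLNs. The macrophage list of 18 genes summed to 20325 to 31596 CPM in TILs and to 215 to 3877 CPM in TDLNs.

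**Figure D1:**
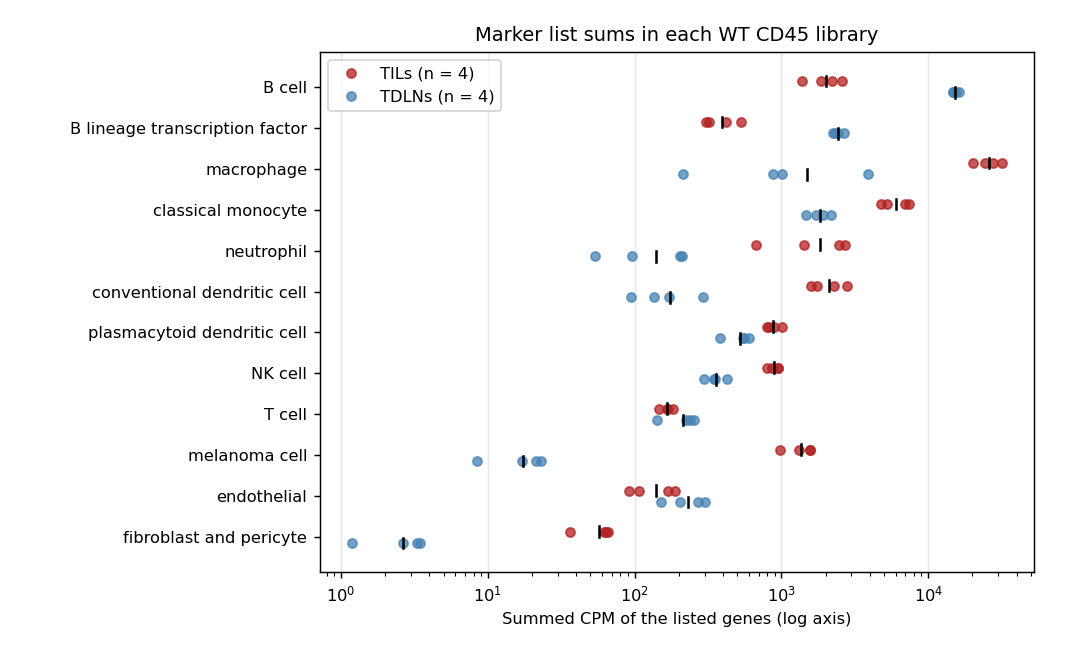
Summed CPM of the genes of 12 marker lists in each WT CD45 library (log axis), with TILs in red, TDLNs in blue, 1 point for each library and a black bar at the mean of 4. The B-cell and B-lineage factor sums of the 4 TDLN libraries lie to the right of all TIL libraries. Their macrophage, monocyte, neutrophil, conventional dendritic and melanoma sums lie to the left of all TIL libraries.

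T-cell genes were low in both tissues. Cd3e, a chain of the T-cell receptor complex, was at 1.76 ± 0.432 CPM in CD45 TILs and 8.8 ± 3.92 CPM in CD45 TDLNs. On the scale of the 24 WT libraries, its mean was 487 CPM in CD4+ TILs and 1096 CPM in CD4+ TDLNs. Cd8a had a mean of 9 CPM in CD45 TILs and 407 CPM in CD8+ TILs on that scale. Cd4, which some myeloid and dendritic cells also transcribe, was at 19.8, 32.9, 18.4 and 18 CPM in CD45 TILs and 14.2, 5.2, 10.9 and 16.1 CPM in CD45 TDLNs. Summed over 16 T-cell genes, the libraries held 146 to 182 CPM in TILs and 142 to 253 CPM in TDLNs.

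Counts on genes ranged from 18638750.0 to 23661038 in TILs and from 16311475 to 24213689 in TDLNs, so 3 counts equal 0.122 to 0.18 CPM, a limit of counting error only. Mitochondrial transcripts made up 0.542% to 1.15% of the counts in TILs and 0.133% to 0.627% in TDLNs. TDLN replicate 4 carried more myeloid transcripts than the other node libraries, with a macrophage sum of 3877 CPM, and TDLN replicate 2 carried the fewest, with 215 CPM. The replicates are separate samples by their titles. The methods tell that each mouse carried 1 tumor and that T cells were sorted from each tumor, but the sources used here do not say so for CD45 cells or nodes, so p-values measure the spread between these samples, part of which may be technical. Transcripts of melanoma cells, which lie outside the gate, were also present. The 10 melanoma genes summed to 972 to 1576 CPM in TILs and to 8.47 to 23.1 CPM in TDLNs, and their part in the results below was not tested.

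Of 13898 genes tested, 5550 (39.9%) were called, 3045 higher (21.9%) and 2505 lower (18%) in TILs. The counts of gene lists below are to be read against these shares. Tested genes had at least 10 counts in 4 or more libraries. A gene near 0 in 1 tissue thus passed only if all 4 libraries of the other tissue held it, so list counts follow in part from this filter. For 48.1% of the tested genes the 4 TIL and 4 TDLN libraries did not overlap. Differences above a log2 fold change of 4 were called for 590 genes higher in TILs and for 24 genes lower in TILs. The median log2 fold change of all tested genes was -0.08. When libraries were scaled on 9 housekeeping genes in place of TMM, this median moved by -0.66, to -0.74, and the calls became 2007 higher and 5204 lower. The share of calls in the direction of TILs was thus 54.9% with TMM and 27.8% with housekeeping scaling, and all differences below are relative to the TMM reference. Single values given for a gene without a unit are log2 fold changes of TILs over TDLNs.

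**Figure D2:**
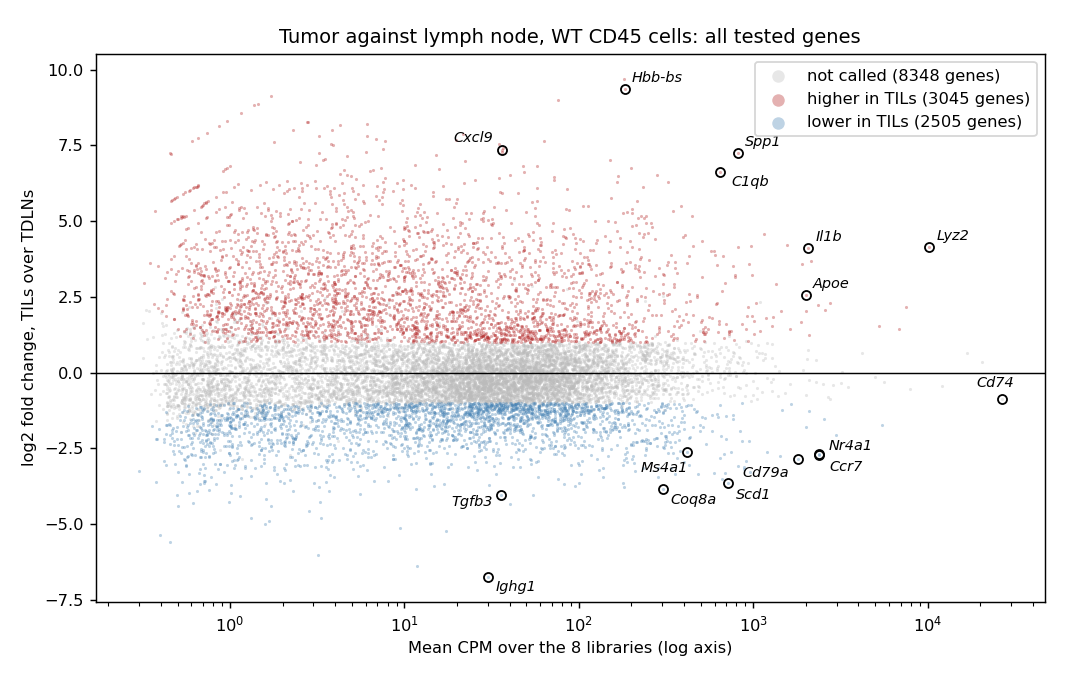
log2 fold change of TILs over TDLNs against mean CPM over the 8 libraries (log axis) for all 13898 tested genes, with called genes in red (3045 higher in TILs) or blue (2505 lower) and uncalled genes in grey. Circles mark named genes, with Lyz2 at 4.13, Cd79a at -2.84 and Cd74 at -0.88.

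Genes were next picked among called protein-coding genes with a mean of at least 50 CPM in the higher group and no overlap between the groups. Calls and lack of overlap of the picked genes thus follow from the choice. The 12 with the greatest log2 fold changes toward TILs included macrophage products, interferon targets and transcripts of other cells. Spp1, which encodes the secreted phosphoprotein osteopontin, was at 3054, 462, 1265 and 1674 CPM in TILs and 1.24, 1.62, 1.36 and 38.9 CPM in TDLNs. The node values were low in replicates 1 to 3 and higher in replicate 4, all below the lowest TIL library (log2 fold change 7.23, SE 1.37, adjusted p = 0.00155). Gpnmb, a glycoprotein of lysosome-rich macrophages and of melanocytes, differed by 7.02 (298 against 2.3 CPM). Fcrls and Retnla, 2 genes of macrophages, had means of 69.1 against 0.392 CPM and 95.3 against 0.895 CPM. The chemokines Cxcl9, which interferon-gamma induces, and Ccl12, which attracts monocytes, had log2 fold changes of 7.36 and 7.63. G0s2, an inhibitor of lipid breakdown abundant in neutrophils, differed by 6.82 and Ptgds, a prostaglandin D synthase, by 7.28. The remaining members were the melanocyte antigen Mlana (72.6 against 0.436 CPM) and the hemoglobin genes Hba-a1, Hba-a2 and Hbb-bs. Hbb-bs was at 478, 71.4, 445 and 470.3 CPM in TILs and at 0.362, 0.0812, 0.534 and 1.35 CPM in TDLNs, lowest in TIL replicate 2 and without overlap between the tissues. Reads of the near-identical Hba-a1 and Hba-a2 may be split between them. The log2 fold changes of Spp1 and Ccl12 rose to 10.13 and 8.99 when TDLN replicate 4 was left out, and that of Cxcl9 was 6.12 without TIL replicate 4.

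The 12 genes with the greatest log2 fold changes in the other direction, picked by the same rule, included several surface and signaling genes of B cells. Cr2, the complement receptor CD21 of mature B cells, was at 28.9, 27.1, 18 and 23.9 CPM in TILs and at 157, 672, 253 and 270.3 CPM in TDLNs, without overlap (log2 fold change -3.79, SE 0.45, adjusted p = 0.00011). Scd1, which makes monounsaturated fatty acids, had a mean of 106 ± 10.5 CPM in TILs and 1330.5 ± 274 CPM in TDLNs (log2 fold change -3.65, SE 0.26, adjusted p = 1.75e-05). Ccr6, a chemokine receptor of B cells, Dtx1, an E3 ligase acting in the Notch pathway, and Chst3, a sulfotransferase, differed by -3.68, -3.51 and -3.63. Rasd1 (-4.36), the growth factor Tgfb3 (-4.05), Ildr1 (-4.04), the kinase Srpk3 (-3.75) and the lipid kinase Pik3c2b (-3.72) completed this set with Coq8a and B3gnt7. Coq8a, a mitochondrial protein of coenzyme Q synthesis, was at 44.8, 42.1, 38.4 and 32 CPM in TILs and at 977, 291, 786 and 226 CPM in TDLNs. B3gnt7, a glycosyltransferase, was at 22.2, 21.3, 34.1 and 28.2 CPM in TILs and at 560.5, 129.8, 425 and 202 CPM in TDLNs. For both genes TDLN replicates 1 and 3 were the highest libraries, and the choice required every node library to lie above every tumor library.

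All 19 tested members of the B-cell list were lower in TILs, with a median log2 fold change of -3.04 against -0.08 for all tested genes. Fcmr, the receptor for IgM, was at 239, 195, 121 and 164 CPM in TILs and 2034, 1229, 1998 and 1686 CPM in TDLNs. All node libraries lay above all tumor libraries (log2 fold change -3.27, SE 0.30, adjusted p = 3.73e-05). Cxcr5, the chemokine receptor that leads B cells into follicles, and Fcer2a, the low-affinity IgE receptor CD23, differed by -3.36 and -3.31. The smallest difference of the list was that of Cd79b (-2.25).

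All 10 transcription factors of the B lineage were also lower in TILs with a median log2 fold change of -2.91. Pax5, which holds cells in the B lineage, was at 5.43, 9.48, 5.4 and 11 CPM in TILs and 32.4, 93.6, 52.4 and 72.2 CPM in TDLNs, without overlap (log2 fold change -3.00, SE 0.39, adjusted p = 0.000171). Spib (-2.72), the octamer coactivator Pou2af1 (-2.25), Foxo1 (-2.98), Bach2 (-3.06) and Ebf1 (-2.91) were among the others. Of 15 genes of B-cell receptor signaling, 8 were lower and none was higher in TILs, including the kinases Syk (-1.41) and Btk (-1.27) and the adaptor Blnk (-2.26). With housekeeping scaling 13 of the 15 were lower. Ptpn6 and Inpp5d, phosphatases shared with myeloid cells, were not called, with means of 662 against 1130.4 CPM and 314 against 518 CPM.

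Immunoglobulin transcripts were lower for 8 of 11 tested constant-region genes. Ighm and Ighd, the heavy chains of naive B cells, had means of 1145 against 4824 CPM and 369 against 2491 CPM, and Igkc, the kappa light chain, of 899.7 against 3133 CPM. Ighg1 was at 0.322, 0.749, 0.42 and 0.692 CPM in TILs and at 209, 9.62, 10.2 and 10.2 CPM in TDLNs, so its node mean was set mostly by replicate 1 (log2 fold change -6.74, and -4.19 without TDLN replicate 1), and DESeq2 did not call it. Igha, the heavy chain of mucosal IgA, went the other way, at 24.8, 108, 31.2 and 20.2 CPM in TILs and 3.26, 3.78, 3.7 and 5.62 CPM in TDLNs (log2 fold change 3.49, SE 0.54, adjusted p = 0.000507). All TIL libraries lay above all TDLN libraries for Igha, with replicate 2 the highest (2.67 without it). Of 7 tested plasma-cell genes, 1 was called higher in TILs, 2 were lower and 4 were not called, and none was higher with housekeeping scaling. Jchain, which joins IgA chains, was at 19.7 ± 12.4 CPM in TILs and 19.9 ± 5.16 CPM in TDLNs (adjusted p = 0.984), and Mzb1, a chaperone of plasma cells and other B-lineage cells, was lower in TILs (-1.63). Germinal-center genes split, with Mef2b (0.514 against 18.2 CPM), Rgs13 and Bcl6 lower and S1pr2, Gcsam and the death receptor Fas higher in TILs. S1pr2 was not called with housekeeping scaling.

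Of 11 MHC class II genes, which B cells, dendritic cells and macrophages all use to present antigen, 5 were lower in TILs and none was higher. The classical chains were abundant in both tissues and not called. Cd74, the invariant chain, was at 14406, 22216, 21214 and 16685 CPM in TILs and 45071, 21403, 41553 and 29459 CPM in TDLNs (log2 fold change -0.88, adjusted p = 0.0368). The groups overlapped, since TDLN replicate 2 lay within the TIL range. Cd74 was called without TDLN replicate 2 (-1.08). H2-Aa, H2-Ab1 and H2-Eb1 had log2 fold changes of -0.56, -0.45 and -0.31, none of them called. The peptide-loading subunit H2-DMb1 had a mean of 1045 against 539.7 CPM without a call (log2 fold change 0.95). H2-DMb1 was called on leaving out TDLN replicate 1 or TIL replicate 1 or 4 singly (1.01 to 1.11). H2-DMb2, its close paralog, was at 392, 381, 302 and 246 CPM in TILs and 2765, 1177, 2368 and 1913 CPM in TDLNs, without overlap (log2 fold change -2.64, SE 0.32, adjusted p = 0.000123). The assignment of reads between these 2 similar genes is uncertain in Salmon's estimates. H2-Oa and H2-Ob, which form the DO protein that restrains peptide loading in B cells, were lower in TILs, with log2 fold changes of -2.17 and -2.69. H2-Eb2 (-2.78) and Ciita, the master activator of the class II genes (-1.62), were also lower. With housekeeping scaling 8 of the 11 genes were called lower.

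**Figure D3:**
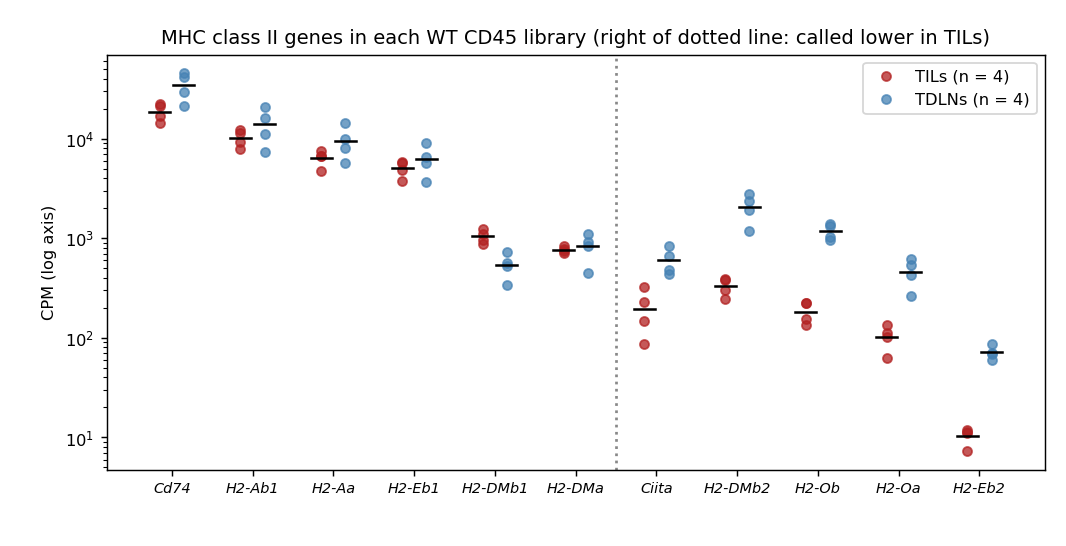
CPM (log axis) of 11 MHC class II genes in each WT CD45 library, with TILs in red, TDLNs in blue and a black bar at the mean of 4. Left of the dotted line stand the 6 uncalled genes, whose groups overlap apart from H2-DMb1, and right of it the 5 genes called lower in TILs, whose groups do not overlap.

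Of 12 MHC class I genes 1 was called, B2m, the light chain of class I proteins (2930.1 against 1229 CPM, log2 fold change 1.25), a call that ended with housekeeping scaling. H2-D1 and H2-K1, classical heavy chains, had log2 fold changes of -0.15 and -0.86 and were not called. H2-K1 was called without TDLN replicate 2 (-1.05). Without TDLN replicate 2 the list had 2 higher and 1 lower genes.

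Of 17 tested macrophage genes, 16 were higher in TILs, with a median log2 fold change of 4.33. Leaving out TDLN replicate 4 raised this median to 5.51. Adgre1, the surface protein F4/80 of mouse macrophages, was at 299, 259, 418 and 303 CPM in TILs and 6.72, 3.29, 10.8 and 29.6 CPM in TDLNs, without overlap (log2 fold change 4.67, SE 0.62, adjusted p = 0.000206). Csf1r, the receptor for the growth factor of macrophages, had means of 1145 against 96.9 CPM (3.56), and Cd14, the coreceptor for bacterial lipopolysaccharide, of 1833 against 101 CPM (4.18). Mrc1, the mannose receptor, Msr1, a scavenger receptor, and Mertk, a receptor for dying cells, differed by 6.36, 5.01 and 5.60. With TDLN replicate 4 left out, Csf1r, Cd14, Mrc1 and Msr1 differed by 4.73, 5.71, 8.76 and 7.36. Marco, a scavenger receptor of resident macrophages, was at 0.56 and 0.755 CPM and was the only tested member not called, and Vsig4 was too low to test.

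Classical monocyte genes were higher for 7 of 10 members and lower for none (5 and 1 with housekeeping scaling). Ccr2, the receptor through which monocytes leave the marrow, was at 749, 712, 765 and 869 CPM in TILs and 13.5, 33.6, 14.3 and 72.4 CPM in TDLNs, without overlap (log2 fold change 4.53, SE 0.55, adjusted p = 0.000127). F13a1, a coagulation factor, and Chil3, a chitinase-like protein, differed by 5.15 and 4.42, and DESeq2 did not call F13a1. Leaving out TDLN replicate 4 gave 5.22, 6.75 and 5.26 for Ccr2, F13a1 and Chil3. Fn1 was at 322, 1272, 2183 and 1849 CPM in TILs and 29.3, 8.45, 38 and 559.6 CPM in TDLNs, with TDLN replicate 4 inside the range of the tumor libraries (log2 fold change 3.15, SE 1.16, adjusted p = 0.0424). Without that library the log2 fold change was 5.78. The call of Fn1 ended on leaving out TDLN replicate 1, 2 or 3 or TIL replicate 2, 3 or 4 singly (2.73 to 3.22).

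All 11 complement genes were higher in TILs, with a median log2 fold change of 3.98 (5.76 without TDLN replicate 4). C1qb, a chain of the initiating complex C1q, was at 1523, 852, 1954 and 803 CPM in TILs and 7.65, 1.14, 3.62 and 39.6 CPM in TDLNs, with all tumor libraries far above the node libraries (log2 fold change 6.63, SE 1.05, adjusted p = 0.000555). C1qa and C1qc, the other 2 chains, differed by 6.76 and 6.52. C3, the central component, differed by 3.27, its receptor C3ar1 by 5.27 (8.54 without TDLN replicate 4), the C5a receptor C5ar1 by 3.98 and the stabilizer properdin (Cfp) by 3.54. For C1qa, C1qb, C1qc, C3, C5ar1 and Cfp the values without that library were 7.78, 8.27, 7.69, 4.42, 5.87 and 4.82, and C3 was at 2.64 without TIL replicate 4. DESeq2 did not call C3ar1 and C5ar1.

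Of 19 tested genes linked to macrophages of tumors, 16 were higher and 1 was lower in TILs. When any 1 TIL library was left out, 17 were tested and 13 were higher, so the number higher follows in part from the count filter. Apoe, the lipid carrier, was at 4516, 2481, 4359.6 and 2343 CPM in TILs and 763, 278, 637 and 642 CPM in TDLNs, and ranked 18 of all genes by mean TPM in TILs (log2 fold change 2.56, SE 0.38, adjusted p = 0.000387). Trem2, a lipid receptor, and Il10, an inhibitory cytokine, differed by 5.31 (6.82 without TDLN replicate 4) and 3.48 (2.87 without TIL replicate 3). The arginine-consuming enzyme Arg1 was not called. It was at 649.9, 198, 519 and 713 CPM in TILs and at 0.31, 0.244, 0.534 and 361 CPM in TDLNs, so TDLN replicate 4 stood within the range of the tumor libraries and the other 3 node libraries were below 1 CPM. Thbs1, a matrix protein that activates TGF-beta, was at 822, 1129.6, 2933 and 2391 CPM in TILs and 37.8, 4.59, 67.2 and 1354 CPM in TDLNs, again with TDLN replicate 4 inside the TIL range, and was not called. Without TDLN replicate 4 both genes were called, at log2 fold changes of 10.43 and 5.62. Il4i1, a secreted amino-acid oxidase also made by B cells, was the member lower in TILs (62.6 against 179 CPM, log2 fold change -1.51).

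Transcription factors of myeloid cells were higher for 11 of 16 and lower for none. Cebpa, a factor of granulocytes and monocytes, differed by 4.15 (6.32 without TDLN replicate 4), and Pparg and Nr1h3, nuclear receptors of lipid metabolism, by 5.42 (6.10 without that library) and 3.68. Spi1, which B cells and myeloid cells share, differed by 1.44 (419.8 against 155 CPM) and was not called with housekeeping scaling.

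Neutrophil genes were higher in TILs for 11 of 14 tested members. S100a8, a subunit of the calcium-binding protein calprotectin, was at 733, 125, 334 and 726 CPM in TILs and 33.8, 7.19, 5.02 and 32.1 CPM in TDLNs, without overlap, and TIL replicate 2 was the lowest of the tumor libraries (log2 fold change 4.62, SE 0.78, adjusted p = 0.00081). Csf3r, the G-CSF receptor, and Cxcr2, the receptor that draws neutrophils into tissue, differed by 3.24 and 3.02.

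All 13 genes of conventional dendritic cells were higher in TILs, with a median log2 fold change of 3.47. Cells with CD4 or CD8 fell outside the gate, so dendritic cells carrying either were left out, and their part was not tested. On the scale of the 24 WT libraries the list had mean sums of 2381 CPM in CD45 TILs, 142 CPM in CD8+ TILs and 223 CPM in CD8+ TDLNs. In CD4+ TILs and TDLNs the sums were 154 and 97.2 CPM. Xcr1, the receptor of the cross-presenting type 1 subset, was at 20.8, 45.6, 21.5 and 9.9 CPM in TILs and 5.32, 4.39, 3.41 and 3.69 CPM in TDLNs (log2 fold change 2.54, SE 0.43, adjusted p = 0.000787). Cd209a and Mgl2, lectins of type 2 and monocyte-derived cells, differed by 4.43 and 5.49, and Flt3 and Zbtb46, which mark dendritic cells, by 2.42 and 2.41. Mgl2 was at 6.10 without TDLN replicate 4 and Zbtb46 at 1.79 without TIL replicate 2. Genes of mature migratory dendritic cells split. Fscn1, an actin bundler, the chemokine Ccl22 and the cytokine subunit Il12b were among 6 that were higher, whereas Ccr7, Cd83 and Relb, which B cells also express, were lower. The call of Relb ended without TDLN replicate 1 (-0.96). DESeq2 did not call Ccl22. Ccr7, the receptor that guides cells into nodes, was at 644, 682, 701 and 495 CPM in TILs and at 5493, 2852, 4718 and 3463 CPM in TDLNs (log2 fold change -2.71, SE 0.29, adjusted p = 7.26e-05). The groups did not overlap for Ccr7.

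Plasmacytoid dendritic cell genes were higher for 6 of 10, including Siglech (144 against 42.7 CPM, log2 fold change 1.75), and lower for Pacsin1 (-1.05). The call of Pacsin1 ended on leaving out TDLN replicate 4 or TIL replicate 3 or 4 singly (-0.95 to -0.92). NK-cell genes were higher for 11 of 16 with TMM and for 4 of 16 with housekeeping scaling. Klrd1, a chain of the CD94 receptors, was at 82.4, 72.8, 65 and 45.7 CPM in TILs and 9.41, 17.9, 9.87 and 9.42 CPM in TDLNs (log2 fold change 2.51, SE 0.30, adjusted p = 0.000118). The libraries of Klrd1 did not overlap. Of 9 tested genes of innate lymphoid cells, 4 were higher, including the receptor Kit and the growth factor Areg, and 2 lower (0 without TDLN replicate 2 or 4, and 1 without TDLN replicate 1 or 3 or TIL replicate 2 or 4). Of 7 tested mast cell and basophil genes 2 were higher (1 on leaving out TDLN replicate 4, TIL replicate 1 or TIL replicate 4) and none was lower, and the basophil protease Mcpt8 was at 0.828 and 0.5 CPM without a call. Of 4 tested eosinophil genes, 3 were higher, such as Ear2 (78.8 against 2.62 CPM), and Il5ra, the receptor chain for interleukin-5, was lower (-2.15, and -1.23 without TDLN replicate 2).

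**Figure D4:**
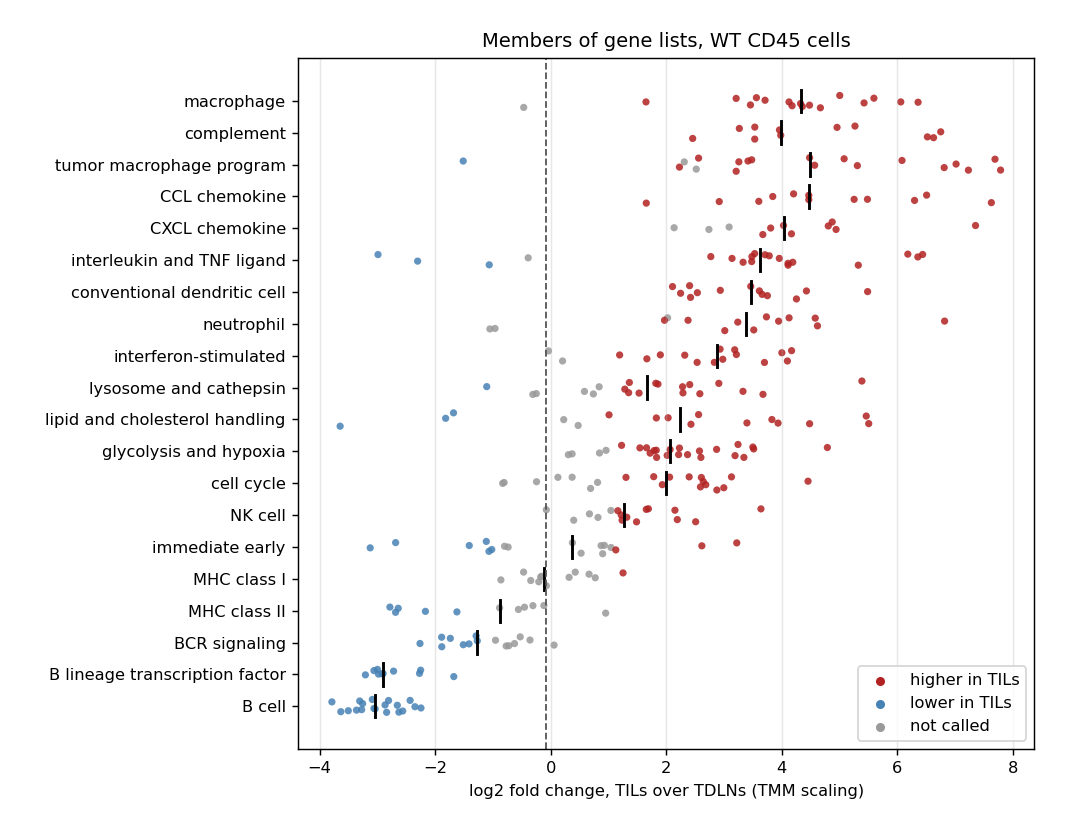
log2 fold change of TILs over TDLNs (TMM scaling) for each tested member of 20 gene lists in WT CD45 cells. Red and blue points are called higher and lower in TILs, grey points are not called, black bars are list medians and the dashed line is the median of all tested genes (-0.08). The macrophage and complement lists lie to the right and the B-cell lists to the left. The MHC class II list holds uncalled and lower genes, and the immediate early list holds higher, lower and uncalled genes.

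Secreted signals were higher in TILs for most genes measured. All 12 CC chemokines of the list were higher in TILs, with a median log2 fold change of 4.47 (7.02 without TDLN replicate 4). Ccl2, the main ligand of Ccr2, was at 794, 486, 861 and 857 CPM in TILs and 4.39, 0.569, 4.28 and 57.9 CPM in TDLNs, and TDLN replicate 4 was the highest node library (log2 fold change 5.49, SE 1.18, adjusted p = 0.00319). Ccl6 and Ccl9, chemokines of mouse macrophages, had means of 2976 against 161 CPM and 1252 against 87.1 CPM. Their log2 fold changes of 4.21 and 3.85 became 7.13 and 6.91 without TDLN replicate 4. DESeq2 did not call Ccl2, which was at 7.91 without that library. Of 11 tested CXC chemokines, 8 were higher (5 of 9 tested on leaving out TIL replicate 2, 3 or 4 singly) and none was lower. Cxcl2, a ligand of Cxcr2, and Cxcl10, an interferon-induced ligand of Cxcr3, differed by 4.17 (5.52 without TDLN replicate 4) and 4.94 (4.18 without TIL replicate 4).

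Among 14 tested chemokine receptors, 9 were higher and 4 lower in TILs. The 4 lower receptors were the follicle and node homing receptors Cxcr5, Ccr7, Ccr6 and Cxcr4. Cxcr4, which retains lymphocytes in tissue, had means of 82.5 against 398 CPM (-2.27). The higher ones included the inflammatory receptors Ccr1 (5.09) and Cx3cr1 (3.83), and Cxcr3 (2.28). Ccr1 and Cx3cr1 were at 6.77 and 4.75 without TDLN replicate 4.

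Of 20 interleukin and TNF family ligands, 16 were higher and 3 lower in TILs. Il1b was at 4369.8, 1991, 5630.2 and 3617 CPM in TILs and 247, 87.1, 146 and 422 CPM in TDLNs, without overlap (log2 fold change 4.11, SE 0.54, adjusted p = 0.000184). Its antagonist Il1rn had means of 679 against 16.9 CPM (5.33), and Il1a, Tnf and Osm differed by 6.44, 3.96 and 3.53, with Il1a and Osm at 7.11 and 4.62 without TDLN replicate 4. The lymphotoxins Lta and Ltb, which B cells use to organize lymphoid tissue, were lower, Ltb at 112, 130.2, 92.5 and 114 CPM in TILs and 572, 464, 461 and 718 CPM in TDLNs (log2 fold change -2.30, SE 0.24, adjusted p = 6.87e-05). The Ltb libraries did not overlap, and Il12a was the third lower gene (-1.06). The call of Il12a ended on leaving out TDLN replicate 2 or TIL replicate 3 singly (-0.98 to -0.84). Tgfb1, an inhibitory cytokine, was not called, at 231 ± 123 and 303 ± 99.7 CPM.

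Inhibitory ligands and receptors differed in part, with 8 of 15 tested genes higher and 1 lower. Cd274, which encodes PD-L1, was at 118, 75.4, 84.5 and 177 CPM in TILs and 45.1, 97.5, 119 and 47.8 CPM in TDLNs and was not called (adjusted p = 0.246). The groups overlapped for Cd274. Vsir, which encodes VISTA, was at 334, 386, 431 and 405 CPM in TILs and 56.8, 23.1, 47.8 and 141 CPM in TDLNs, without overlap (log2 fold change 2.53, SE 0.47, adjusted p = 0.00137). Lilrb4a and Pilra, inhibitory receptors of myeloid cells, differed by 4.61 and 4.77, Havcr2 (TIM-3) by 3.55, and the costimulatory ligand Cd80 by 4.17. When TDLN replicate 4 was left out, Vsir, Pilra and Havcr2 differed by 3.17, 5.78 and 4.70. Btla, an inhibitory receptor of B cells, was lower (-1.88), with overlapping groups. The call of Btla ended on leaving out TDLN replicate 2 or TIL replicate 1, 3 or 4 singly (-1.97 to -0.96).

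Receptors for microbial and antibody ligands were mostly higher. Of 16 genes of toll-like receptors and their partners, 10 were higher, including Tlr2 (3.41), Tlr4 (2.91) and Tlr13 (5.36), and Cd180, a related protein of B cells, was lower (-1.05). With housekeeping scaling 8 of the 16 were higher and 3 lower. The call of Cd180 ended on leaving out TDLN replicate 2, 3 or 4 or TIL replicate 1, 2, 3 or 4 singly (-1.22 to -0.58). All 10 Fc receptor genes were called. The 3 lower members were the B-lineage genes Fcer2a, Fcmr and Fcrla, and the 7 higher included the activating receptors Fcgr1 (4.36, and 8.09 without TDLN replicate 4), Fcgr3 (4.48, not called by DESeq2) and Fcgr4 (5.43) with their signaling chain Fcer1g (4.14). Fcgr2b, the inhibitory receptor that B cells and myeloid cells share, differed by 1.65. The values of Tlr2, Tlr13, Fcgr3, Fcgr4 and Fcer1g without TDLN replicate 4 were 4.13, 6.64, 6.15, 6.69 and 5.07.

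Genes of glycolysis and of the response to low oxygen were higher in TILs for 21 of 25 members and lower for none, with a median log2 fold change of 2.07. Gapdh was at 4856, 2981, 3706 and 3899 CPM in TILs and 989, 398, 741 and 1193 CPM in TDLNs, without overlap (log2 fold change 2.22, SE 0.35, adjusted p = 0.000566). Ldha, which turns pyruvate into lactate, had means of 2858 against 904 CPM (1.66), and Slc16a3, which exports lactate, of 324 against 31.9 CPM (3.35, and 5.05 without TDLN replicate 4). Bnip3, a mitochondrial protein induced in low oxygen, was at 423, 196, 218 and 279.9 CPM in TILs and 17.4, 24.3, 24.5 and 32.5 CPM in TDLNs (log2 fold change 3.50, SE 0.32, adjusted p = 3.73e-05). The oxygen sensor Egln3, the hexokinase Hk2 and the growth factor Vegfa differed by 3.19, 3.24 and 2.23. The melanoma genes, which were also higher in TILs, moved with these widely expressed genes, and their part was not tested.

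Most glycolysis and hypoxia genes and most interferon targets were higher in TILs, and their promoter windows were searched for known motifs on both strands. A window ran from 250 bases before to 50 after the start of the gene (RefSeq, GRCm38.p6). The core of the hypoxia response element, ACGTG, was in the window of 16 of 23 glycolysis and hypoxia genes that had a window (69.6%), and of 21.8% of all 27025 genes with one. The windows with the motif in capitals are shown for 2 of these genes, the abundant enzyme Ldha, for which RefSeq gives a second window, and the low-oxygen gene Bnip3. On both windows the capitals mark ACGTG or its reverse complement, and CACGTG holds both with overlap.
Ldha, chr7:46845554-46845853, strand +: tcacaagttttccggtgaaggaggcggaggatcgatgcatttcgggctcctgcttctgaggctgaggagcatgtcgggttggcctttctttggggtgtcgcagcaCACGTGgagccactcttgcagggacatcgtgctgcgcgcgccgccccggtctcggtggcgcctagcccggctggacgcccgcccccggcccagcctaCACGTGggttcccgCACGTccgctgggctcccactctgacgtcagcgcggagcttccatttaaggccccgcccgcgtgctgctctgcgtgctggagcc
Bnip3, chr7:138909457-138909756, strand -: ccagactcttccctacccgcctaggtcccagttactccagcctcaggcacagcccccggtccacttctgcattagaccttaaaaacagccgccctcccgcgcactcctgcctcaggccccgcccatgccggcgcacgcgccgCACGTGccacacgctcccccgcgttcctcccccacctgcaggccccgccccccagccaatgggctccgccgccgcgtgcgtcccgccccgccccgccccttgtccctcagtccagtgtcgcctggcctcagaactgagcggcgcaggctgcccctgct
The window of Bnip3 holds 2 overlapping matches, at 108 and 107 bases before the start, and that of Ldha holds 5 matches at 3 places, the nearest at 34 bases. A match describes the letters of a window and was not tested as a site. The lists were written from general knowledge of these pathways, so the share of their windows with a motif is no result of these samples.

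Of 16 genes known as targets of interferon, 14 were higher and none was lower in TILs, with a median log2 fold change of 2.88. Isg15, a ubiquitin-like protein, was at 44.4, 58.1, 88.3 and 146 CPM in TILs and 11.1, 5.69, 6.91 and 13.4 CPM in TDLNs, without overlap (log2 fold change 3.19, SE 0.43, adjusted p = 0.000227). Ifit3 and Rsad2, antiviral effectors, differed by 3.70 and 4.17, and Oas1a, a sensor of double-stranded RNA, by 2.83. The interferon-stimulated response element, searched as GAAA, 2 bases of any kind and GAAA, was in the window of 7 of 11 of these genes with a window (63.6%), and of 3.99% of all genes with one. The windows of Isg15 and Ifit3 are shown with the motif in capitals, as members that carry it in opposite orientations relative to the gene.
Isg15, chr4:156200769-156201068, strand -: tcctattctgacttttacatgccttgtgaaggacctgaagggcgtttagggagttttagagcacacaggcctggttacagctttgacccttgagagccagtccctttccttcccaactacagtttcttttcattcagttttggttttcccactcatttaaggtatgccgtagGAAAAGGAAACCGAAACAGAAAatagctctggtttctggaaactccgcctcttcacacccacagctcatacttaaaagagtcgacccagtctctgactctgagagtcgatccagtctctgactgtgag
Ifit3, chr19:34583279-34583578, strand +: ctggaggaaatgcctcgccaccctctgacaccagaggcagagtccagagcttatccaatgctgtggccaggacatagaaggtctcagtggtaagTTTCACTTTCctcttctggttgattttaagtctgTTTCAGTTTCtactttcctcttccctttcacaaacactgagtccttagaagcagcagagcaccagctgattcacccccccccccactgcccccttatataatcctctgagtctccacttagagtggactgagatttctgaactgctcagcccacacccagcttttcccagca
In Isg15 the 3 matches overlap, starting 78, 72 and 66 bases before the start of the gene, and in Ifit3 the 2 matches stand apart. The octamer ATGCAAAT was in 1 of 14 B-cell windows, in 0 of 9 of B-lineage factors and in 0 of 13 of macrophage genes, against 1.97% of all genes. The PU.1 core GAGGAAGT was in 2 of 14 B-cell windows, 1 of 13 macrophage windows and 0 of 12 of myeloid factors, against 3.69%.

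Genes of lysosomes and cathepsins were higher for 14 of 20. Ctsb, a cysteine protease, and Psap, the precursor of saposins, had means of 3961 against 309.6 CPM (3.68) and 4543 against 932 CPM (2.28). Tfeb, a transcription factor that drives lysosome genes, was lower (60.5 against 130.4 CPM, log2 fold change -1.11). The call of Tfeb ended on leaving out TDLN replicate 4 or TIL replicate 1 or 3 singly (-0.97 to -0.87). Genes of lipid handling were higher for 11 of 16 and lower for 3. Lpl, which frees fatty acids from lipoproteins, Plin2, which coats lipid droplets, and the carrier Fabp5 differed by 5.51, 3.83 and 4.48, and DESeq2 did not call Plin2 (4.92 without TDLN replicate 4). The 3 lower members were Scd1 and the cholesterol exporters Abca1 and Abcg1. Abca1 was at 39.8, 59.9, 75.8 and 70.8 CPM in TILs and 229, 194, 276 and 170.4 CPM in TDLNs, without overlap (log2 fold change -1.82, SE 0.27, adjusted p = 0.000352), and Abcg1 differed by -1.68. Iron-handling genes were higher for 7 of 9 tested, including the ferritin chains Ftl1 (2.16) and Fth1 (1.53, not called with housekeeping scaling) and the exporter Slc40a1 (4.63). Of 16 genes of matrix remodeling, 13 were higher (7 to 8 of 13 tested when 1 TIL library was left out). The number higher follows in part from the count filter, which members near 0 in TDLNs passed only through the TIL libraries. Among the higher genes were the proteases Mmp12 (6.09), Mmp14 (4.57, and 5.74 without TDLN replicate 4) and Mmp9 (3.95).

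Of 20 cell-cycle genes, 13 were higher in TILs and none was lower (11 and 2 with housekeeping scaling). Cdk1, the kinase that starts mitosis, was at 45.4, 31.2, 29.5 and 26.3 CPM in TILs and 3.93, 2.4, 2.92 and 5.91 CPM in TDLNs (log2 fold change 3.13, SE 0.34, adjusted p = 7.5e-05). The libraries of Cdk1 did not overlap, and Birc5 and Top2a differed by 2.69 and 2.06. The replication-licensing genes Mcm2, Mcm3 and Mcm5 were not called, with log2 fold changes of -0.83, -0.24 and -0.81. Mcm2 was called without TDLN replicate 2 (-1.04). Mcm5 was called without TDLN replicate 2 (-1.01).

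Immediate early genes, which respond within minutes to receptor signals and to tissue handling, went in both directions, with 3 of 17 higher and 6 lower. These counts were 5 and 5 without TDLN replicate 4, and 4 and 3 without TIL replicate 1. Nr4a1, which encodes Nur77, a target of antigen-receptor signals, was at 249.8, 789.6, 700.4 and 832 CPM in TILs and 4089, 4954, 2923 and 4570.3 CPM in TDLNs, without overlap (log2 fold change -2.68, SE 0.39, adjusted p = 0.00034). Egr3 (-3.12) and Jund (-1.41) were also lower. Atf3, a stress factor, was at 409.9, 556, 501 and 614 CPM in TILs and 63.4, 82.1, 52 and 141 CPM in TDLNs (log2 fold change 2.62, SE 0.34, adjusted p = 0.00017), without overlap. Ier3 differed by 3.22 (5.02 without TDLN replicate 4), and DESeq2 did not call it. Fos and Egr1, which cell handling also induces, were not called, with means of 1221 against 592 CPM and 422 against 226 CPM. Fos was called without TDLN replicate 4 (1.53). Of 11 heat shock genes 3 were higher, with Hspb1 at 4.59 (5.56 without TDLN replicate 1), and Dnajb1 was lower (-1.34). The number of higher heat shock genes was 1 without TDLN replicate 3 or 4 and 5 without TIL replicate 2. With housekeeping scaling 2 heat shock genes were higher and 4 lower.

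Hippo pathway genes, which include the gene deleted in the other genotype, were mostly low in these cells. Yap1 had means of 3.63 against 1.82 CPM and was not called (adjusted p = 0.0252). Yap1 was called on leaving out TDLN replicate 4 or TIL replicate 2 singly (1.10 to 1.19). Wwtr1, which encodes the related coactivator TAZ, was at 10.4, 6.4, 6.6 and 11 CPM in TILs and 0.724, 0.244, 0.0822 and 0.117 CPM in TDLNs, and Ccn1 and Ccn2, known targets of both proteins, had means of 13.7 against 0.178 CPM and 9.25 against 0.1 CPM. Of 14 tested members 6 were called (42.9%, near the 39.9% of all tested genes). The 4 higher ones were these 3 and the kinase gene Stk3, which was not called with housekeeping scaling. Their number was 2 of 12 tested on leaving out TIL replicate 1, 3 or 4 singly. Genes near 0 in TDLNs could pass the count filter only through the TIL libraries, so the number of higher members follows in part from the filter. Fibroblast genes moved with the higher members, and their part was not tested. Lats2, a kinase that restrains Yap, was lower in TILs (28.5, 75.5, 51.6 and 69.6 CPM against 223, 209, 344 and 176 CPM, log2 fold change -2.08, SE 0.34, adjusted p = 0.000671), without overlap, as 1 of 2 lower members (1 without TDLN replicate 1).

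Transcripts of cells that lack CD45 were measurable in the tumor sort. Of the melanoma genes, all 10 were higher in TILs. Genes near 0 in TDLNs were tested only because all TIL libraries held them, so counts of higher genes in this paragraph follow in part from the filter. When any 1 TIL library was left out, 7 melanoma genes were tested and all were higher. Dct, a pigment enzyme, was at 586, 408, 339 and 516 CPM in TILs and 9.05, 5.69, 3.33 and 8.72 CPM in TDLNs, and Pmel, the melanosome matrix protein, at 343, 363, 233 and 364 CPM and 4.86, 4.51, 2.43 and 4.8 CPM. With Gpr143, at 0 counts in all TDLN libraries, set to 3 counts over the group, the median log2 fold change of the list was 6.29. Of 9 tested endothelial genes 8 were higher, but at low levels, such as Kdr at 17.6 and 1.51 CPM, and Pecam1, which leukocytes also express, was lower (59 against 225 CPM). Fibroblast and pericyte genes summed to 36.3 to 65.7 CPM in TILs and 1.19 to 3.45 CPM in TDLNs. Genes of node stroma such as Ccl21a and Ccl19 had means of 0.0948 and 0.0972 CPM in TDLNs.

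The same tissues were compared in WT CD4+ and CD8+ T cells, which share no library with the CD45 cells. The labels do not say whether the sorts came from the same mice, and the main fits treated all libraries as independent. The difference between tumor and node differed from that of CD4+ T cells for 2490 of 15934 genes (15.6%), more positive in CD45 cells for 992 and more negative for 1498. Against CD8+ T cells the interaction was called for 2572 genes (16.1%), 1051 more positive and 1521 more negative. In CD4+ cells alone 36.2% of tested genes were called between the tissues (22.7% higher and 13.5% lower in TILs). In CD8+ cells 38.6% were called (23.2% higher and 15.4% lower). Of the genes higher in CD45 TILs, 1876 (61.6%) were also called higher in CD4+ TILs, where they made up 51.8% of the higher genes, and 101 were called lower there. Of the genes lower in CD45 TILs, 924 (36.9%) were also lower in CD4+ TILs, 42.9% of the lower genes there, and 100 were higher. With CD8+ cells 1918 (63%) and 1098 (43.8%) of the CD45 genes were shared in the higher and the lower direction. These made up 51.9% and 44.8% of the CD8+ genes of that direction, and 119 and 101 were called the opposite way.

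The genes with the greatest interactions were of 2 kinds. Tyrp1, Slc45a2 (melanocyte proteins) and Igfbp3, a growth factor carrier, were higher in all 3 tumor sorts and were named for the most negative fitted interactions. Over the 4 CD4+ TDLN libraries Igfbp3 and Slc45a2 were at 0 counts and Tyrp1 at 2 counts, and Slc45a2 was also at 0 in CD8+ TDLNs, so their fitted values and rank there depend on the prior count and are not given. Tyrp1 had means of 376 CPM in CD45 TILs, 3206 CPM in CD4+ TILs and 3189 CPM in CD8+ TILs, and of 4.09, 0.0286 and 0.124 CPM in the corresponding TDLNs. The second kind, Rasgrp3, Hs3st1 and Spns2, was lower in CD45 TILs and higher in T-cell TILs. Rasgrp3, an activator of Ras in B cells, differed by -2.39 in CD45 cells, 5.49 in CD4+ and 4.98 in CD8+ T cells (interaction with CD4+ cells -7.86, SE 0.85, adjusted p = 1.82e-06). Hs3st1, a heparan sulfate sulfotransferase, had means of 26 and 278 CPM in CD45 TILs and TDLNs and of 24 and 1.29 CPM in CD4+ TILs and TDLNs. Spns2, a transporter of sphingosine-1-phosphate, differed by -3.11, 4.19 and 4.06 in CD45, CD4+ and CD8+ cells.

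Other abundant genes also went opposite ways, and 4 are named here, chosen after their values were seen. Mef2c, a transcription factor of B and myeloid cells, was lower in CD45 TILs (-1.95) and higher in CD4+ (3.01) and CD8+ TILs (3.45). Scd1 went the same way, at -3.65, 1.72 and 1.30. Vsir and Itgb2, the shared chain of leukocyte integrins, were higher in CD45 TILs (2.53 and 1.27) and lower in CD4+ TILs (-1.24 and -1.31) and CD8+ TILs (-1.81 and -1.32). The 4 interactions with CD4+ cells had adjusted p of 5.6e-05, 1.58e-06, 0.000299 and 0.00109. Itgb2 was not called in CD45 cells with housekeeping scaling, and Vsir was at 3.17 there without TDLN replicate 4.

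Interferon targets had a median tissue difference of 2.88 in CD45 cells, 0.81 in CD4+ and 0.36 in CD8+ cells. Interactions were called for 6 of 16 of these genes against CD4+ cells and for 11 against CD8+ cells in the positive direction, where 6.23% and 6.6% of all genes were called, and for 0 and 0 in the negative direction, where 9.4% and 9.55% were called. For glycolysis and hypoxia the medians were 2.07, 1.96 and 1.57, with 4 and 6 interactions of 25 called more positive and 3 and 3 more negative against CD4+ and CD8+ cells. Macrophage genes were also present in the T-cell sorts, with mean sums of 458 CPM in CD4+ TILs and 469 CPM in CD8+ TILs, against 29527 CPM in CD45 TILs. Their median tissue differences were 4.33, 4.30 and 4.06 in CD45, CD4+ and CD8+ cells, with 2 and 1 of 17 interactions called more positive. For complement genes the medians were 3.98, 4.86 and 4.74, and for CC chemokines 4.47, 5.30 and 4.51. The size of these fold changes was thus not particular to the CD45 cells. Melanoma genes summed to 11296 and 10295 CPM in CD4+ and CD8+ TILs, above the 1545 CPM of CD45 TILs on the scale of the 24 WT libraries.

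**Figure D5:**
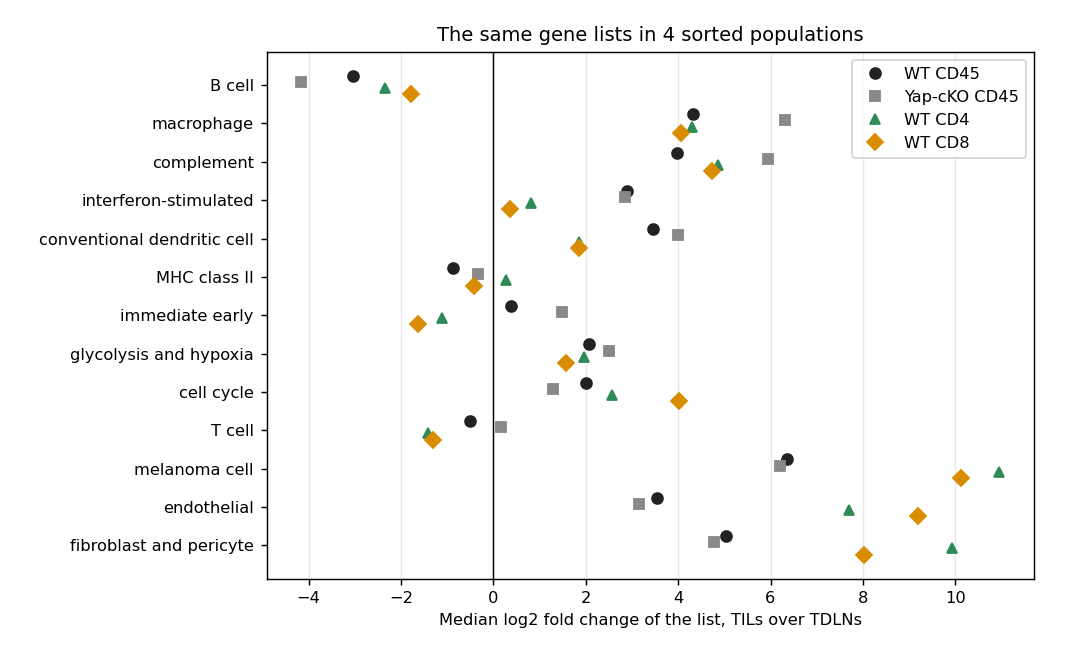
Median log2 fold change of TILs over TDLNs for 13 gene lists in WT CD45 cells (black circles), Yap-cKO CD45 cells (grey squares), WT CD4+ (green triangles) and WT CD8+ cells (orange diamonds). Interferon-stimulated genes lie further right in both CD45 populations than in T cells, and melanoma genes lie furthest right in T cells, where the fitted values of genes at 0 counts in TDLNs depend on the prior count.

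The comparison was repeated in CD45 cells of Yap-cKO mice, whose Yap is deleted in T cells and whose 8 libraries share none with WT. There 5538 of 13734 genes were called (40.3%), 21.8% higher and 18.5% lower in TILs. Of the genes higher in WT TILs, 2430 (79.8%) were called higher again, which made up 81% of the Yap-cKO list, and none was called lower. Of the genes lower in WT TILs, 1875 (74.9%) were called lower again, 73.9% of the Yap-cKO list, and 1 was called higher. Lyz2, Cd79a and Ms4a1 differed by 6.05, -4.19 and -4.07 there. Igha was again higher in TILs (5.06, adjusted p = 1.35e-05), Abca1 differed by -1.54 (adjusted p = 0.000393) and Nr4a1 by -1.56 (adjusted p = 0.00265). The interaction of tissue and genotype was called by edgeR for 0 of 14871 genes, with 1246 at an unadjusted p under 0.05 and 119 called by DESeq2. This term asks only whether the difference between tumor and node differs between the genotypes. Such a difference was not detectable by edgeR with these libraries, and the genotypes were not compared within a tissue here. On the scale of the 16 CD45 libraries, Y-linked genes summed to 2.15 to 3.6 CPM in Yap-cKO TILs and 5.36 to 10.4 CPM in Yap-cKO TDLNs, against 2.22 to 120 and 7.51 to 384 CPM in WT, and their part was not tested.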

How the data were processed

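Libraries were made from sorted cells with the Takara SMART-Seq v4 kit, and the submitters' processing notes name FastQC, Trimmomatic, Salmon 0.9.1 and the mm10 build. The authors deposited Salmon's estimated counts (expected counts) and TPM for each transcript. For every GENCODE M21 gene the estimated counts of its transcripts were added up and rounded to whole numbers. Genes with at least 10 counts in 4 or more libraries were kept, normalized by TMM and fitted with edgeR 4.0.16 (quasi-likelihood, two-sided, Benjamini-Hochberg) in R 4.3.3, on the 8 libraries for the tissue comparison, on 16 for genotype and on the 24 WT libraries for the interactions with T cells. DESeq2 1.42.0, other scalings, no filter, transcript length offsets, a replicate block and each library left out in turn were alternatives. The fits were checked on simulated counts.

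Members and the 46 gene lists (572 genes, 570 matched) were chosen with earlier results of these data known. Named genes were Lyz2, Cd79a and Ms4a1, the 12 called, non-overlapping protein-coding genes of at least 50 CPM with the greatest change in each direction, members of the lists, and the 5 with the greatest interaction with each T-cell type. No pair of libraries within a group was identical. The number of counts per library, given in the report, sets counting error only. Some list members are counted but not reported by name here. TPM served only to rank genes within a tissue.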

Additional observations from a re-analysis of the deposited data

Results flagged for a closer look

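In groups of 4 libraries, Dixon's test asks whether the highest or lowest library stands apart from the other 3, and chance alone gives such a result in about 1 of 20 groups. That rate is for normally distributed values, and many genes were examined, so chance alone can give some of the values below. Each value below is that of the library that stood apart, followed by the range of the other 3. No explanation was tested.

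Most of these values belonged to TDLN replicate 4, the node library with the highest macrophage sum. Among genes of macrophages, monocytes and complement it was highest for Arg1 (361 against 0.244 to 0.534 CPM), C1qb (39.6 against 1.14 to 7.65 CPM), C3ar1 (38.1 against 0.731 to 1.29 CPM), C5ar1 (72.1 against 1.02 to 11.4 CPM), Cfp (142 against 10.6 to 29.6 CPM), F13a1 (73.4 against 4.83 to 10.7 CPM), Fn1 (559.6 against 8.45 to 38 CPM), Mrc1 (6.2 against 0.123 to 0.609 CPM) and Msr1 (30.7 against 1.42 to 2.26 CPM). It was also highest for Fcer1g (215 against 28.2 to 60 CPM), Fcgr1 (44.7 against 0.122 to 1.6 CPM), Fcgr3 (104 against 4.95 to 13.6 CPM), Fcgr4 (7.2 against 0.487 to 1.34 CPM), G0s2 (1.93 against 0.609 to 0.822 CPM), Mmp14 (11.3 against 1.34 to 2.3 CPM), Retnla (3.22 against 0 to 0.206 CPM), Spp1 (38.9 against 1.24 to 1.62 CPM), Thbs1 (1354 against 4.59 to 67.2 CPM), Tlr13 (11.8 against 1.18 to 2.69 CPM) and Trem2 (7.38 against 0.493 to 1.14 CPM). Of the chemokines and their receptors it was highest for Ccl2 (57.9 against 0.569 to 4.39 CPM), Ccl22 (43.7 against 2.03 to 8.67 CPM), Ccl6 (582 against 5.85 to 29.3 CPM), Ccl9 (318 against 3.45 to 15.9 CPM), Ccr1 (38.5 against 3.36 to 4.51 CPM), Cx3cr1 (20.3 against 3.93 to 4.44 CPM) and Cxcr3 (8.55 against 4.73 to 5.16 CPM). The remaining genes with TDLN replicate 4 apart were Cebpa (7.43 against 0.284 to 0.699 CPM), Hba-a1 (1.05 against 0 to 0.123 CPM), Ier3 (188 against 5.28 to 27.9 CPM), Mcpt8 (1.76 against 0 to 0.244 CPM), Pik3c2b (79.1 against 46.3 to 51.9 CPM), Slc16a3 (98.5 against 1.83 to 15.5 CPM) and Vegfa (41.7 against 16.1 to 19.7 CPM).

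TDLN replicate 2, the node library with the lowest macrophage sum, stood apart for Il5ra (46.3 against 7.24 to 13.6 CPM), Klrd1 (17.9 against 9.41 to 9.87 CPM), Mef2c (935 against 357 to 437 CPM), Rgs13 (6.46 against 1.76 to 2.22 CPM) and Stk3 (6.82 against 0.62 to 1.58 CPM). TDLN replicate 1 stood apart for Cxcr5 (1033 against 807 to 840.0 CPM) and Ighg1 (209 against 9.62 to 10.2 CPM), and TDLN replicate 3 for Pmel (2.43 against 4.51 to 4.86 CPM) and Rasd1 (41.4 against 86.1 to 90.5 CPM).

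Among tumor libraries, TIL replicate 2 was the lowest for Hba-a1 (32.5 against 183 to 199 CPM), Hba-a2 (73.7 against 431 to 473 CPM), Hbb-bs (71.4 against 445 to 478 CPM), Ier3 (360.1 against 602 to 636 CPM) and Plin2 (464 against 885 to 933 CPM), and the highest for Cd4 (32.9 against 18 to 19.8 CPM), Igha (108 against 20.2 to 31.2 CPM) and Mcm5 (93.3 against 65.2 to 69.2 CPM). TIL replicate 1 stood apart for Fscn1 (22.5 against 132 to 135 CPM), Psap (2497 against 4951 to 5409.9 CPM) and Rgs13 (0.322 against 0 to 0.0532 CPM). TIL replicate 3 stood apart for Dnajb1 (147 against 91.9 to 100.3 CPM), F13a1 (1139 against 764 to 777 CPM) and Pmel (233 against 343 to 364 CPM), and TIL replicate 4 for Ccl22 (123 against 194 to 204 CPM) and Csf3r (295 against 119 to 129 CPM).

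By the interaction term of edgeR, the tissue difference of CD45 cells differed from that of T cells for the genes named in the report. Minus that of CD4+ cells it was -7.86 for Rasgrp3, -7.64 for Hs3st1 and -7.26 for Spns2 on the log2 scale. Minus that of CD8+ cells it was -7.35, -6.73 and -7.14 for these genes, -8.08 for Tyrp1 and -7.10 for Igfbp3. No value is given where a gene had 3 counts or fewer over a group.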

How the results depend on the processing

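The number of called genes ranged from 4646 to 5492 when each library was left out in turn (4559 without replicate 4 of both tissues), the number higher from 2492 to 3112 and the number lower from 2154 to 2407. The interaction with genotype ranged from 0 to 2 genes, that with CD4+ cells from 2091 to 2636 and that with CD8+ cells from 2188 to 2779. Housekeeping scaling gave 2007 higher and 5204 lower genes, and for the genotype interaction DESeq2 called 119 genes and edgeR without the count filter called 2, and the cause was not tested. Among genes named here, housekeeping scaling also turned the direction of uncalled genes, Cd274 to -0.14 and Cd8a to -0.17. Jchain, near 0, became 0.0106 with DESeq2's size factors, 0.0244 with transcript length offsets and 0.0235 with upper quartile scaling, and ranged from -0.36 to 0.35 over left-out libraries. Marco ranged from -0.758 to 0.0145 over left-out libraries. Housekeeping scaling ended the calls of B2m, Fn1, Fth1, Itgb2, S1pr2, Spi1 and Stk3, and DESeq2 those of C3ar1, C5ar1, Ccl2, Ccl22, F13a1, Fcgr3, Ier3, Ighg1 and Plin2. Of 3944 comparisons of a gene with an alternative, 3853 kept direction and side of the threshold, 48 lost and 33 gained a call, and 10 changed sign. A tumor and a node library of the same number did not deviate together (correlations of deviations from the group means 0.0495, -0.013, -0.00871 and 0.128). These values cannot decide whether such libraries came from the same mouse, and Y-linked sums were lowest in replicate 4 of every WT group. The main fits did not pair the samples, and a replicate block gave 5347 called genes. At 3 counts or fewer over a group, fitted changes of named genes depend on the prior count and are not given.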

Other observations

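Node libraries also differed among themselves in genes that were lower in TILs. Tgfb3, a TGF-beta family growth factor, was at 104, 36.9, 101 and 27 CPM in TDLN replicates 1 to 4, and Ildr1 was at 144, 60.4, 154 and 50.7 CPM. As for Coq8a and B3gnt7, replicates 1 and 3 were the higher pair, and these 4 genes were set side by side after their values were seen.

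On the scale of the 24 WT libraries, the summed CPM of 4 Y-linked genes was 135, 103, 126 and 2.49 in TIL replicates 1 to 4 and 84.2, 427, 122 and 8.5 in TDLN replicates 1 to 4. It was lowest in replicate 4 of both tissues and of the CD4+ and CD8+ sorts of WT mice. The labels give no sex, and none of the 4 genes was called between tissues.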
